A study of Rattus norvegicus with 12 samples.

Results

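The m6A regions described here were the stretches of RNA in which a methylation peak was called in each of the 6 retina samples of a rat model of traumatic optic neuropathy (TON). Peaks of the 6 per-sample lists that shared at least 1 base on the same chromosome were joined, which gave 24605 regions, and 5261 of them (21.4%) held a peak in every list. These 5261 regions lay in 3315 genes, which were 35.5% of the 9325 genes with a region in any list. The members were selected on the presence of a called peak in these same samples, so their fold enrichment, peak score and number of lists are given as descriptions. The rule treats TON and sham samples alike and fixes no direction between them.

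In the TON group, the optic nerve of male Sprague-Dawley rats aged 7 to 8 weeks was clamped for 10 s at 2 mm behind the eye with a force of 40 g. In the sham group, rats of the same strain, sex and age had the same operation without the clamp. Retinas were taken 12 h after surgery, 4 rats were pooled for a sample, and 3 samples were made per group (TON 4, 5 and 6 and sham 1, 2 and 3), each as an m6A immunoprecipitate and an input RNA library, 12 libraries in all. Surgery was under pentobarbital sodium with a chlortetracycline eye ointment afterwards, no transgene was used, and bulk retina does not separate the ganglion cells, whose axons were clamped, from the other retinal cells, so that fewer cells of a type and less RNA per cell cannot be told apart. The corneal keratin Krt12 was at 74.9 FPKM in the sham 1 input against 1.3 to 9.6 FPKM in the other 5.

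N6-methyladenosine (m6A) is a methyl mark that a writer complex built around METTL3 and METTL14 places on adenosines of mRNA, that FTO and ALKBH5 can remove, and that YTH-domain proteins read. It is known to collect in long internal exons and around the stop codon, and the mark is read to control splicing, export, translation and decay of the transcript. In MeRIP-seq, fragmented RNA is captured with an antibody to m6A, and a peak is a stretch where captured reads exceed those of the input. The unit used throughout is the fold enrichment that the peak caller gave for a peak, a ratio of immunoprecipitate to background. The peak score is the caller's p-value on a negative logarithmic scale, and it reaches a plateau from 3100 on. FPKM is the level of the gene in the input RNA.

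Regions found in every list were stronger and longer than regions found in fewer. Their median fold enrichment was 10.2 (quartiles 7.69 and 14.5, range 2.82 to 324), and it was 7.40, 6.84, 6.32, 5.97 and 5.33 for regions in 5, 4, 3, 2 and 1 lists. Their median length was 297 bases, against 206 bases for regions in 5 lists and 163 bases for regions in 1 list. Counted by region, the level of the gene was about the same, with a median of 22.1 FPKM against 21.3 FPKM for regions in 1 to 5 lists. A gene with several regions counts once for each of them. Enrichment decides whether a peak is called, so this gradient is tied to the rule and carries no test.

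The lists placed these regions at the same bases. In 4405 of the 5261 regions (83.7%) the start and the end were identical in all 6 lists, in 5229 each list had exactly 1 peak, and every region had at least 1 base common to all 6. Identical edges were as frequent, at 85.4% to 87.7%, in regions of 2 to 5 lists. How the edges were set was not tested, so identical edges are not read as agreement between independent calls. Lengths had quartiles of 150 and 953 bases, 1250 regions (23.8%) had 1000 bases or more, and 56 had under 50. Among the longest, the region was internal in Map1a (8104 bases), a microtubule-associated protein, and reached the 3′ end in Zfp292 (8922 bases), Ppm1l (8139 bases), a protein phosphatase, and Peg3 (7838 bases), an imprinted zinc finger gene.

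The presence of a region in every list did not mean a strong peak in every list. The weakest of the 6 peaks scored between 50 and 60, next to the lowest scores listed, in 368 regions, and only regions with all 6 peaks entered the set, whereas 2693 regions missed exactly 1 list. Of these, 607 lacked a peak only in TON 6, 257 only in TON 5, 208 only in TON 4, 639 only in sham 3, 274 only in sham 2 and 708 only in sham 1. At the upper end, 199 regions scored at least 3100 in all 6 lists and 1167 (22.2%) had a fold enrichment of at least 10 in all 6. The caller's false discovery rate was under 25% in all 6 lists for 1018 regions, and it was up to 100% in some list for several regions named below. Over the peaks of the 5261 regions the median rate was 14.3%, 18.3% and 28.1% in TON 4, 5 and 6. It was 20.2%, 22.8% and 51.45% in sham 1, 2 and 3.

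These regions reached the annotated 3′ end of the gene more often than regions of fewer lists, but their centres were not nearer to it at a distance of 500 bases. Of the 4939 regions whose gene had start and end coordinates in the expression table, 972 (19.7%) reached within 5 bases of the 3′ end, 735 (14.9%) did so at the 5′ end, 134 (2.71%) at both ends, and 3098 (62.7%) were internal. Among regions in 1 to 5 lists the same shares were 13.8%, 13.6%, 1.11% and 71.5%, and among regions in 1 list 10.3%, 12.8%, 0.411% and 76.5%. The centre was within 1000 bases of the 3′ end in 20.5% of the regions (95% Wilson interval 19.4% to 21.6%, which covers counting error only), against 19.7% of those in 5 lists and 16.2% of those in 1 to 5 lists. It was within 500 bases in 11.7%, against 12.8%, 11.7%, 11.7%, 12.2% and 9.43% of regions in 5, 4, 3, 2 and 1 lists. The share that reached the 3′ end was 18.1% for regions in 5 lists, and lengths differ between these classes. Regions at the 3′ end were long, with a median of 1034 bases, those at the 5′ end had 229 bases and internal ones 203 bases, while median fold enrichment was 10.2 at the 3′ end, 10.7 at the 5′ end and 10.1 inside. These positions are genomic, so an internal region of a spliced gene can still be near the stop codon of the mRNA.

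**Figure D1:**
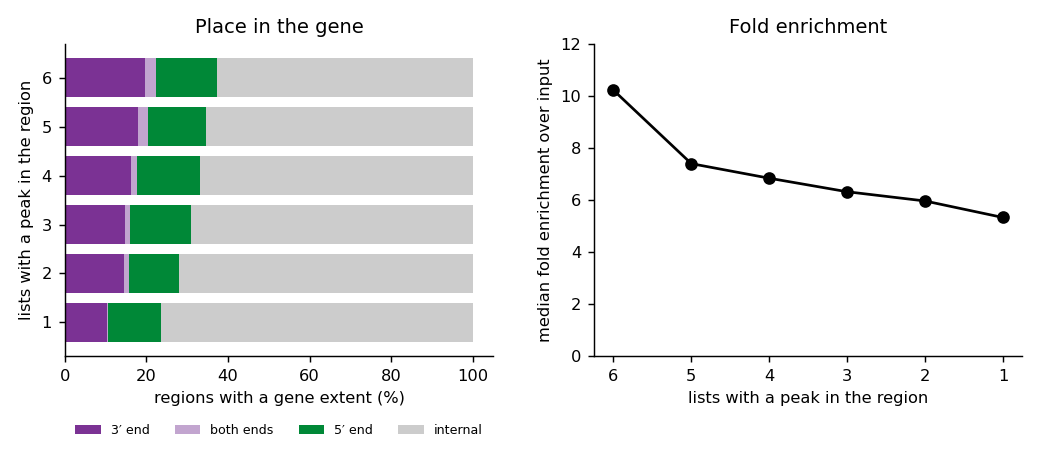
Place in the gene and fold enrichment of m6A regions by the number of lists, from 1 to 6, that held them. The share at the 3′ end was 19.7% for regions in all 6 lists and 10.3% for regions in 1 list, and median fold enrichment was 10.2 and 5.33.

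Most genes carried a single region of this kind. Of the 3315 genes, 2269 (68.4%) had 1, 625 had 2, 421 had 3 or more, 110 had 5 or more and 7 had 10 or more. The 10 genes with the most were Akap9 (15), a scaffold of the centrosome and Golgi, Dst (14), the cytoskeletal linker dystonin, Cgnl1 (13), a junction protein, Rsf1 (11), a chromatin remodeling factor, Tpr (11), a nuclear pore component, Erc2 (10), a presynaptic active zone protein, Smarcc1 (10), a SWI/SNF subunit, Eea1 (9), an endosomal tether, Fam184a (9) and Golim4 (9), a Golgi membrane protein. They were not methylated only where every list agreed, since Akap9 had 34 regions and Dst 46 in any list.

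Regions of the same gene differed in enrichment. In the 1046 genes with 2 or more regions, the most enriched was a median of 1.67 times the least enriched (quartiles 1.29 and 2.42), and the ratio was 5 or more in 36 genes. It was highest, 14.0, in Hnrnpm, a splicing regulator, in which 5 regions had median fold enrichments of 5.64, 6.93, 9.12, 26.2 and 79.0 from the 3′ side to the 5′ end. Within Rsf1 the medians ran from 7.10 to 35.1, within Golim4 from 5.91 to 39.9, and within Akap9 from 6.06 to 20.4.

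**Figure D2:**
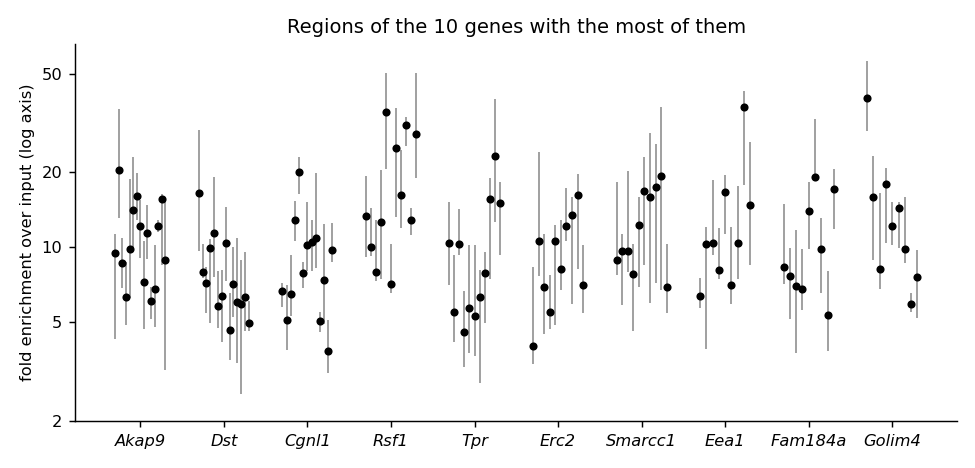
Median fold enrichment over 6 lists of every region held by the 10 genes with the most regions in all lists, 1 point a region on a logarithmic axis. Akap9 held 15 regions between 6.06 and 20.4, and Golim4 9 regions between 5.91 and 39.9.

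The highest enrichments lay in genes below 100 FPKM, and 6 of the 10 at the 5′ end of the gene. Of the 10 regions with the highest median fold enrichment in genes of at least 1 FPKM, the first was in the unnamed gene AABR06042582.1 (324), where the lists ranged widely (1355, 116 and 467 in TON samples against 127, 180 and 1193 in sham samples). Bccip, whose product binds BRCA2, followed with 219, 143 and 238 in TON samples against 100.3, 184 and 143 in sham samples (chromosome 1, 212726542 to 212726728). Dolpp1 (129), of dolichol metabolism, Pcca (109), a subunit of propionyl-CoA carboxylase, Eif3j (101) and Eif5b (81.8), translation initiation factors, Upf2 (81.2), of nonsense-mediated decay, Hnrnpm (79.0), AABR06098525.1 (77.8) and the histone demethylase Kdm5a (65.2) completed the 10. Over all 5261 regions, the TON values were all above the sham values in 25.4% and all below in 3.73%, and after each list was divided by its median in 13.3% and 10.5%. In Pcca the 78-base region had 55.8, 82.9 and 58.2 in TON samples against 246, 161 and 136 in sham samples, and the groups did not overlap, but with each list centred as described below the log2 difference of -1.80 ± 0.41 (SE) did not pass the limma test (adjusted p = 0.0838).

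The most abundant transcripts that held such a region ranged widely in enrichment. Gngt1, the gamma subunit of rod transducin, averaged 3047 FPKM and had a 263-base region at its 3′ end with fold enrichments of 37.2, 58.3 and 40.5 in TON samples against 27.4, 45.3 and 32.9 in sham samples, which overlapped. Among the next genes by level were Crybb2, a lens crystallin also made in retina, Pcp4, a calmodulin regulator, the ribosomal protein genes Rps23, Rpl26 and Rpl35, Snap25, which acts in synaptic vesicle fusion, Dkk3, a secreted Wnt modulator, and Tulp1, of photoreceptor transport. Their regions had median fold enrichments between 6.38 (Pcp4) and 31.2 (Rpl35). The Crybb2 level was 705, 433 and 455 FPKM in TON inputs against 1499, 1068 and 681 FPKM in sham inputs. The lens gene Cryaa was also highest in sham 1 (2764 FPKM), and a part of lens tissue in these levels was not tested. In Snap25 an 85-base internal region had 5.95, 6.75 and 5.46 in TON samples against 9.56, 9.41 and 9.62 in sham samples, a log2 difference of -1.01 ± 0.27 (SE) after centring with an adjusted p of 0.111 in limma.

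Across genes, level and the presence of such a region were not proportional. A region in all 6 lists was present in 23.8% of the 12976 genes with at least 1 FPKM (3088 genes), in 9.11% of genes at 1 to 5 FPKM, in 31.1% at 20 to 50 FPKM and in 16.8% at 100 FPKM or more. It was present in 16.7% of the fifth of genes with the shortest genomic extent and in 31.4% of the fifth with the longest. Over regions, fold enrichment and FPKM were nearly unrelated (Spearman 0.054 across 4912 regions, which share libraries and genes and are not replicates).

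The m6A machinery itself was in part among the marked genes. Of 8 writer genes, 3 held such regions (Wilson interval 13.7% to 69.4%). The interval contains the 23.8% of all expressed genes. Zc3h13, which anchors the writer complex in the nucleus, had 8 regions with medians from 8.995 to 29.2, the strongest of which had 62.4, 30.4 and 64.1 in TON samples against 23.5, 28.0 and 20.2 in sham samples (log2 difference 0.71 ± 0.30 (SE), adjusted p = 0.237). Rbm15, which guides the complex to RNA, had 1 region of 2865 bases that spanned the whole extent of the gene, with 23.7, 14.2 and 24.1 in TON samples against 13.3, 12.2 and 10.8 in sham samples. Mettl14, the RNA-binding partner of the catalytic subunit, had 2 regions of 88 and 89 bases. Mettl3, Wtap, Cbll1, Rbm15b and Mettl16 had none, nor did the erasers Fto and Alkbh5.

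Of 10 reader genes, 4 held such a region (Wilson interval 16.8% to 68.7%, which also contains 23.8%), and these 4 encode YTH proteins. Ythdc2, also a YTH gene, held none, nor did Hnrnpa2b1, Prrc2a, Fmr1, Igf2bp2 and Hnrnpc. Ythdc1, the nuclear reader, had 6 regions with medians from 7.86 to 33.2, the strongest at its 3′ end with 45.9, 30.4 and 54.6 in TON samples against 26.8, 31.9 and 34.5 in sham samples, which overlapped. The cytoplasmic readers Ythdf1, Ythdf2 and Ythdf3 each had 1 internal region of similar length (1521, 1510 and 1599 bases), with medians of 6.54, 11.2 and 8.91. In Ythdf2 the values were 19.2, 10.2 and 19.7 in TON samples against 12.1, 8.68 and 6.82 in sham samples, with the TON 5 value inside the sham range. None of the 20 regions in writers and readers passed the limma test.

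Chromatin regulators and zinc finger genes held such regions in larger shares than all expressed genes. In the list of chromatin regulators 31 of 38 expressed genes (81.6%, Wilson interval 66.6% to 90.8%) held 91 regions, against 23.8% of all expressed genes. Ncor1, a nuclear receptor corepressor at 146 FPKM, had 7 of them with medians from 8.33 to 32.8. The histone methyltransferase gene Ash1l had 5, the chromatin remodeler Chd9 had 2, and Kdm5b had 1 at its 3′ end with 32.9, 20.9 and 29.1 in TON samples against 9.64, 14.1 and 10.5 in sham samples (log2 difference 0.92 ± 0.26 (SE), adjusted p = 0.12). Genes of the list have a median extent of 69.3 kb against 23.4 kb for all expressed genes, and the part of gene size in this share was not tested.

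Of 246 Zfp genes, which encode DNA-binding zinc finger proteins, 138 (56.1%) held 168 regions at a median extent of 11.8 kb. The share was 43.0% in the KEGG spliceosome (52 of 121 genes) and 22.6% in a list of hnRNP, SR and core splicing factors (12 of 53). It was 42.2% in synapse and ion channel genes (19 of 45), 45.5% in axon growth and degeneration genes (10 of 22), and 35.4% in cadherins and protocadherins (23 of 65). KEGG MAPK signaling, with 27.2% (58 of 213 genes), was close to all expressed genes.

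Among retinal cell type markers, those of ganglion cells had the largest share with such regions, in 7 of 14 genes. The Wilson interval of 26.8% to 73.2% overlaps others, such as that of Müller glia (13.8% to 60.9%). The 7 were the neurofilament genes Nefl, Nefm and Nefh, the growth cone protein gene Gap43, Sncg, the glutamate transporter gene Slc17a6 and the transcription factor gene Pou4f1. Thy1, Tubb3, Isl1, Ebf1, Rbpms, Pou4f2 and Pou4f3 held none. The 469-base region at the 3′ end of Nefl had 18.8, 16.0 and 22.2 in TON samples against 12.8, 14.5 and 14.7 in sham samples. Of 15 rod genes, 2 held one (Gngt1 and the channel subunit gene Cngb1, Wilson interval 3.74% to 37.9%), although the median level of the list was 1114 FPKM, and Gnat1 and Sag had no peak in any list. The counts were 2 of 10 for cones, 4 of 12 for Müller glia, 2 of 12 each for bipolar and amacrine cells, 1 of 6 for horizontal cells, 2 of 10 for endothelium and pericytes, 1 of 9 for pigment epithelium, 1 of 10 for lens and ocular surface, 0 of 9 for microglia (Wilson interval up to 29.9%) and 0 of 5 for blood cells (up to 43.4%).

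Ribosomal and respiratory chain genes held such regions in smaller shares than all expressed genes, and proteasome genes did not. The share was 12.8% in ribosomal protein genes (14 of 109, Wilson interval 7.81% to 20.4%, median 132 FPKM and 2.69 kb) and 10.8% in respiratory chain genes (9 of 83, 5.81% to 19.3%), and 28.2% in proteasome genes (11 of 39). Such a region was held by 3 of 20 immediate early genes (Ier2, Ier5 and Klf4, interval 5.24% to 36.0%) and by 3 of 23 injury response genes (Cebpd, Gadd45a and Sox11, 4.54% to 32.1%), and both intervals contain the 23.8% of all expressed genes. In all lists these counts describe the genes chosen and carry no test.

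**Figure D3:**
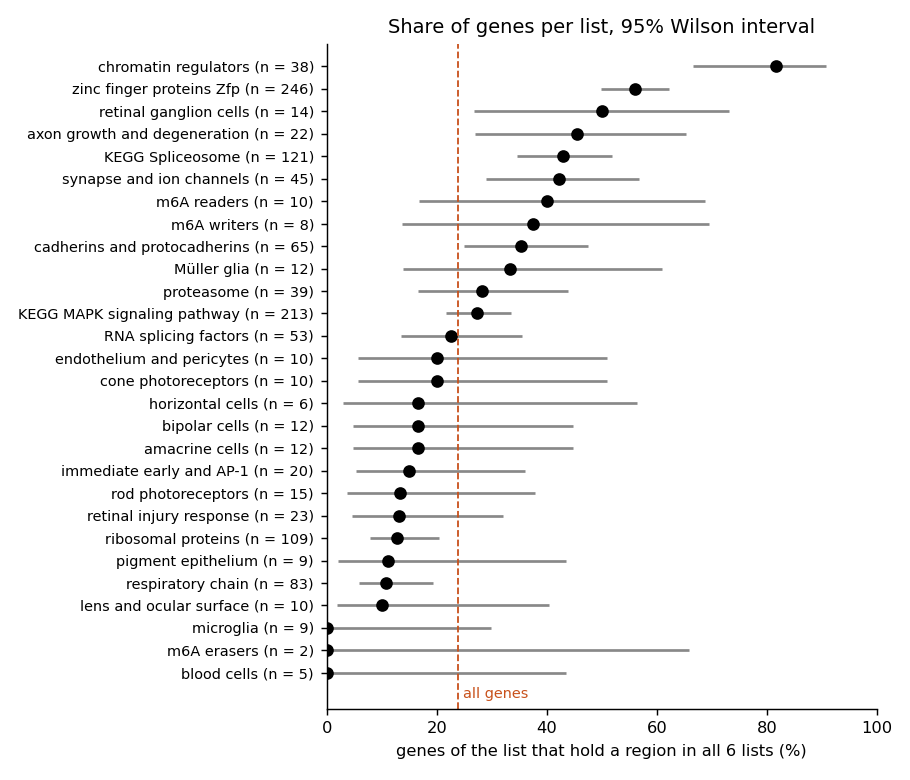
Share of expressed genes (at least 1 FPKM) in each gene list that held an m6A region present in all 6 lists, in percent, with 95% Wilson intervals. Chromatin regulators were at 81.6%, all expressed genes at 23.8% and ribosomal protein genes at 12.8%.

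TON and sham lists differed in the level of enrichment of these regions. Their median fold enrichment was 12.8, 9.96 and 13.1 in TON 4, 5 and 6 against 8.72, 9.86 and 9.33 in sham 1, 2 and 3. The means were 12.0 ± 1.75 for TON and 9.30 ± 0.57 for sham (SD, n = 3 each), 28.7% higher in TON, and the groups did not overlap, with a two-sided exact permutation p of 0.1, the smallest that 3 against 3 can give. Without TON 5 the difference was 39.5%. The median fold enrichment of all other peaks was 7.05, 6.11 and 8.11 in the TON lists against 5.80, 6.10 and 6.13 in the sham lists. Median peak length was 297 ± 0.58 bases for TON and 295.5 ± 0.5 for sham (SD, n = 3 each), and 0.389% more bases were covered in TON. Both rest on the edges used to choose the regions, which were identical in most, so no test is read from them.

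TON 5 stood apart from the other TON lists, and was nearest to sham 2 and sham 3. Over the 5261 regions the Spearman correlation of fold enrichment was 0.854 between TON 4 and TON 6. TON 5 correlated with TON 4 and TON 6 at 0.679 and 0.680, and with sham 1, 2 and 3 at 0.652, 0.784 and 0.715. TON 4 and TON 6 correlated with the sham lists at 0.505 to 0.631, and the sham lists with each other at 0.664 to 0.782. These are descriptions over regions of shared libraries. Some results that rest on the TON group are also given without TON 5, a choice made for this list after its values were seen. The median log2 differences by length class and by gene list, and the values of most single regions, are given with all 6 lists only.

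The difference between TON and sham followed the length of the region, and it rested mainly on TON 4 and TON 6. In the 2622 regions longer than 300 bases the median fold enrichment was 15.4, 9.50 and 15.1 in TON 4, 5 and 6 against 8.64, 9.08 and 8.16 in sham 1, 2 and 3, which did not overlap. In the 2639 regions of up to 300 bases it was 10.5, 10.5 and 11.1 in TON against 8.86, 10.7 and 10.6 in sham, which overlapped. TON 4 and TON 6 stood apart for the long regions, and TON 5 lay only just above the sham lists. The split at 300 bases was chosen after the values were seen, so no test is given.

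Over 8 classes of length, with every list centred on its median over the 5261 regions, the median log2 difference between TON and sham ran from -0.21 in regions of 1 to 100 bases, through -0.17 at 201 to 300 and 0.14 at 301 to 600 bases, to 0.34 in regions above 2000 bases. The share of regions above 0 was 33.3% in the shortest class and 84.1% in the longest. Regions outside the set showed the same course, from -0.28 to 0.27, so it was no property of regions in all 6 lists. Within the set, TON 5 did not share the rise. From the shortest to the longest class, median fold enrichment as deposited rose from 10.7 to 15.8 in TON 4 and from 11.7 to 15.8 in TON 6. It fell from 10.6 to 9.41 in TON 5. In sham 1, 2 and 3 it fell from 8.825 to 8.515, from 11.1 to 8.68 and from 10.6 to 7.435. Among all other peaks, those longer than 300 bases made up 48.5%, 29.1% and 50.1% of the TON lists against 26.5%, 28.1% and 20.1% of the sham lists. The number of fragments recovered from the input table was lowest in TON 4 and TON 6 (3163302 and 3731627, with 4759873 in TON 5, against 4195969, 4735916 and 4060720 in the sham inputs), and its part in the course was not tested.

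**Figure D4:**
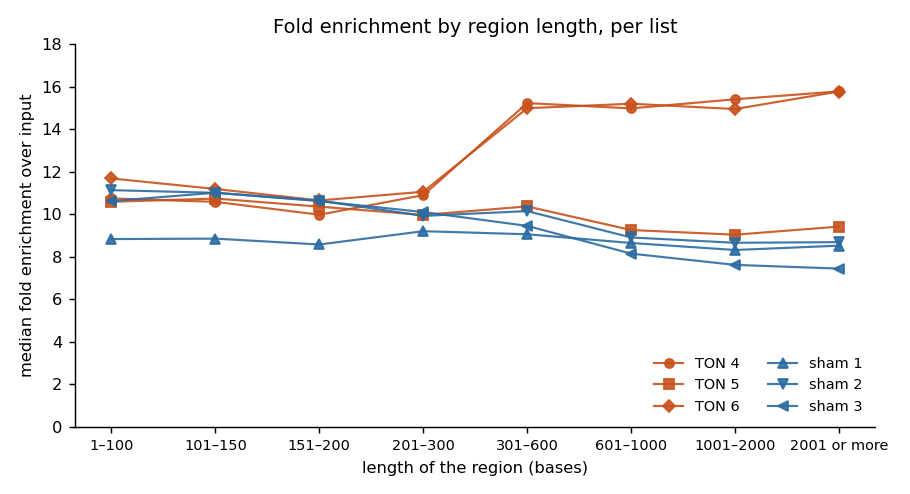
Median fold enrichment, as deposited, of regions in all 6 lists by class of region length, for each TON and sham list. TON 4 and TON 6 lay at 9.97 to 11.7 in classes of up to 300 bases. They lay at 14.9 to 15.8 in longer ones, and TON 5 stayed closer to the sham lists.

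For single regions, the log2 fold enrichment of each list was centred on its median over the 5261 regions and TON was compared with sham by limma over all 8933 regions that had a peak in at least 2 lists of each group, with Benjamini-Hochberg adjustment. At an adjusted p under 0.05, 0 of the 5261 regions were higher in TON (against 0.0112% of all regions fitted) and 3 were lower (against 0.056%). At an unadjusted p under 0.05 there were 507 higher (background 7.6%) and 561 lower (background 10.9%), which is 20.3% of the members together, 11.5% without TON 4, 11.5% without TON 6 and 32.1% without TON 5. Without TON 5, 65 were higher (background 1.15%) and 219 were lower (background 3.18%). These 284 share 5 of 6 lists with the fit above. The 3 regions called with every sample were among the 284. The fold enrichment of TON 5 lay on the TON side in 251 of the 284. That side was read against the mean of the same sham lists that helped to choose these regions. The count is therefore a description and no test of TON 5.

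Called regions divided by length. Of the 65 that were higher in TON without TON 5, 58 (89.2%) were longer than 300 bases and their median length was 859 bases, while of the 219 that were lower 20 (9.13%) were, with a median of 157 bases. For all 5261 the share was 49.8%. When each list was centred within the 8 length classes, an alternative added after the data were seen, 1 region was higher (Arid4b) and 3 were lower (Wbp4, Wfikkn1 and Rpl5l1) with every sample, while Pdcl, lower in the fit above, did not pass (adjusted p = 0.0594). In the same way 40 were higher (background 0.799%) and 68 lower (background 1.05%) without TON 5.

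The 3 regions that passed the test all fell in TON, and the FPKM of their genes did not pass the test. In Wbp4, which encodes a spliceosome-associated WW domain protein, an internal region of 196 bases (chromosome 15, 65436302 to 65436497) had fold enrichments of 7.14, 7.21 and 7.86 in TON samples against 24.0, 23.9 and 30.2 in sham samples. The groups were far apart, with a log2 difference of -2.16 ± 0.26 (SE, limma adjusted p = 0.00591), at 25.7 ± 1.83 FPKM in TON and 27.5 ± 7.54 FPKM in sham (SD, n = 3 each). In Pdcl, the gene of phosducin-like protein, a chaperone of G protein beta subunits, an internal region of 177 bases (chromosome 3, 26848704 to 26848880) had 6.68, 6.12 and 6.98 in TON samples against 14.4, 13.5 and 17.0 in sham samples, a log2 difference of -1.53 ± 0.26 (SE, limma adjusted p = 0.0404), at 21.3 ± 2.58 and 21.1 ± 4.42 FPKM.

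In Wfikkn1, the gene of a secreted protein that binds myostatin, the region had 1479 bases (chromosome 10, 15056372 to 15057850), and its edges were not the same in all lists. Its fold enrichment was 3.62, 12.98 and 10.15 in TON samples against 35.4, 50.3 and 50.3 in sham samples, a log2 difference of -2.87 ± 0.43 (SE, limma adjusted p = 0.0222), in a gene of low level (3.57 ± 1.45 FPKM in TON and 2.52 ± 0.36 FPKM in sham). The caller's false discovery rate of these peaks was at most 61.2% in Wfikkn1, 74.99% in Wbp4 and 40.1% in Pdcl in the list where it was highest, and 0 of the 3 regions were called when percentiles within each list were fitted (adjusted p = 0.275 each). On the score in place of fold enrichment, Wbp4 (adjusted p = 0.054) and Pdcl (0.0613) did not pass, and Pdcl also did not pass without centring (0.0748). Wbp4 passed when any 1 of the 6 samples was left out. Wfikkn1 did not pass without sham 1 (adjusted p = 0.0645), and Pdcl passed only without TON 5, with adjusted p between 0.061 (without sham 2) and 0.145 (without TON 6) when any other sample was left out.

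Next to the threshold, Rragc, a Rag GTPase of amino acid signaling to mTORC1, had 5.08, 5.74 and 4.74 in TON samples against 9.95, 12.4 and 12.9 in sham samples, and RGD1311899 had 5.16, 4.13 and 5.14 against 8.94, 9.22 and 13.2 (adjusted p = 0.0508 each in limma). The lowest p in the other direction were those of Bles03, Arid4b, Nrp2, Rrbp1 and Esf1, and none passed. Nrp2, a semaphorin and VEGF coreceptor, had 38.5, 22.1 and 34.6 in TON samples against 9.13, 10.3 and 5.13 in sham samples at its 5′ end (log2 difference 1.62 ± 0.30 (SE), adjusted p = 0.0508). Arid4b, a subunit of a histone deacetylase complex, had 101, 41.6 and 55.8 in TON samples against 9.43, 13.9 and 19.2 in sham samples in an 85-base internal region (1.82 ± 0.34, adjusted p = 0.0508). Bles03 had 18.4, 16.9 and 13.1 against 3.68, 5.13 and 4.61 (1.497 ± 0.28, adjusted p = 0.0508). Groups in each of these regions were apart, but the regions were picked for the lowest p, so this adds no support.

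**Figure D5:**
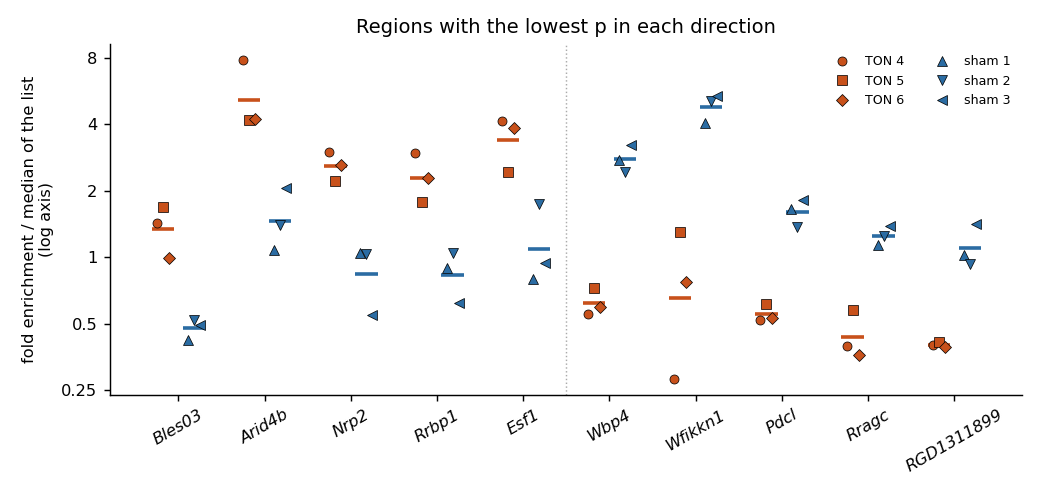
Fold enrichment, divided by its list's median over the regions in all lists, of the 5 regions with the lowest p in each direction. Values of each TON and sham list are on a logarithmic axis and are not the fold enrichments as deposited. Wbp4, Wfikkn1 and Pdcl, lower in TON, passed the adjusted threshold and the other 7 did not.

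Among the regions that passed without TON 5, Casc3, of the exon junction complex, had 3.96 and 3.61 in TON 4 and TON 6 and 16.8 in TON 5, against 12.3, 15.8 and 13.3 in sham samples (adjusted p = 0.00825 without TON 5 and 0.165 with it). Here TON 5 lay above every sham list. In Idh3a, a subunit of mitochondrial isocitrate dehydrogenase, the values were 4.68, 9.33 and 5.14 in TON samples against 12.9, 12.1 and 15.9 in sham samples (adjusted p = 0.00974 without TON 5). In Grin2d, an NMDA receptor subunit gene, they were 35.7, 12.1 and 37.3 in TON samples against 12.1, 8.80 and 8.34 in sham samples (adjusted p = 0.0279 without TON 5 and 0.157 with it), with TON 5 level with sham 1.

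By list, regions of ribosomal protein genes had a median log2 difference of -0.68 between TON and sham, with 0 of 17 higher and 7 lower at an unadjusted p under 0.05. Those of respiratory chain genes had -0.55, with 1 of 12 higher and 5 lower. Regions of Zfp genes had 0.24, with 18 of 168 higher and 6 lower, those of chromatin regulators 0.11, with 13 of 91 higher and 5 lower, and all members 0.04, with 9.64% higher and 10.7% lower. Regions of the most abundant genes of the ribosomal and respiratory chain lists were mostly short, such as those of Rps23 (186 bases) and Ndufb9 (193 bases), and the part of region length in these medians was not tested. In the axon growth list, Map1b, a microtubule-associated protein of growing axons, had a region of 6481 bases with 73.5, 49.2 and 60.2 in TON samples against 14.5, 26.6 and 30.3 in sham samples, which did not overlap (log2 difference 1.05 ± 0.32 (SE), adjusted p = 0.131).

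Some regions had nearly constant fold enrichment as deposited. The SD of log2 fold enrichment over the lists had a median of 0.45 (quartiles 0.33 and 0.59). In Akap9 a region of 2346 bases had 12.5, 12.1 and 12.9 in TON samples against 11.6, 11.6 and 12.3 in sham samples, and in Kif5c, a kinesin of axonal transport, a region of 149 bases had 15.8, 17.4 and 16.1 against 14.7, 16.1 and 16.2. After centring, the log2 differences between TON and sham were -0.27 in Akap9 and -0.28 in Kif5c. At the other end, Dynll1, a dynein light chain gene, had 9.75, 78.4 and 8.10 in TON samples against 74.1, 87.3 and 5.06 in sham samples, so that both groups held high and low lists.

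In the input RNA, none of the genes that held these regions passed the test between TON and sham with every sample, and Cebpd was closest to it. In limma on log2(FPKM + 1) over 15900 genes, 0 of the 3154 tested genes with such a region passed an adjusted p of 0.05, against 0.044% of all genes. At an unadjusted p under 0.05 there were 307 (9.73%), 156 higher and 151 lower, against 10.4% of all genes. The number was 168 (5.33%) without TON 5 and 198 (6.28%) without TON 6, and centring each library on its median gave 72 higher and 284 lower, so the split of directions depends on the scaling. The lowest p belonged to Cebpd, a C/EBP transcription factor of the acute phase response, with 37.8, 36.4 and 34.7 FPKM in TON samples against 9.13, 3.66 and 7.62 FPKM in sham samples. Its TON mean was 5.33 times the sham mean, a log2 difference of 2.33 ± 0.27 (SE, limma adjusted p = 0.0545) on the log2(FPKM + 1) scale. It passed without sham 2 (adjusted p = 0.0148) and with a filter at 1 FPKM (adjusted p = 0.0438).

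The single region of Cebpd, 1141 bases long and spanning the gene, had fold enrichments of 33.4, 15.1 and 23.3 in TON samples against 9.10, 12.9 and 7.51 in sham samples (log2 difference 0.89 ± 0.30 (SE), adjusted p = 0.157). Htra1, a secreted serine protease gene, was next with 99.9, 107 and 91.5 FPKM in TON samples against 60.7, 52.2 and 48.8 FPKM in sham samples (ratio of means 1.84, adjusted p = 0.0811). The groups were apart in both genes, but these were picked for the lowest p, so this adds no support. Over 4912 regions, the difference in fold enrichment and the difference in FPKM of the gene were unrelated (Pearson -0.014, Spearman -0.030, a description across regions). None of Map2, Zwint, Ttr and Huwe1 held a region of this kind.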

How the data were processed

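Retina samples of TON and sham rats (3 per group) were measured as m6A immunoprecipitate and input libraries. Per the study's methods, the authors trimmed reads with cutadapt 1.9.3, aligned them with HISAT2 2.0.4, called peaks in each sample on its own with MACS 1.4.2 and estimated expression with Cufflinks and Cuffdiff. For the coordinates, a rat genome build was not given in the sources used here. Deposited peak lists give for each peak a score (a negative logarithm of the p-value), a fold enrichment (a ratio of immunoprecipitate to input), a false discovery rate in percent and a length. The deposited expression table gives FPKM per gene and a signal, which the authors made by dividing fragments by a size factor of the library. That signal served only to estimate the fragments behind each input, between 3163302 and 4759873, since 98.3% to 98.6% of its low values were whole multiples of 1 step (tolerance 0.1 of a step). The depth of the immunoprecipitates is unknown.

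Overlapping peaks of the 6 lists (by 1 base or more) were joined, and in each list the highest fold enrichment in a region was used. TON was compared with sham on log2 fold enrichment, after centring, in the 8933 regions with a peak in at least 2 lists per group, and on log2(FPKM + 1) in 15900 genes whose TON or sham mean reached 0.1 FPKM, with limma 3.58.1 (R 4.3.3), an intensity trend and Benjamini-Hochberg adjustment. Values per list were compared with two-sided exact permutation tests over samples, whose smallest p is 0.1. Both fits were tested on simulated data. P-values measure the spread between pools of 4 rats. Tables and figures were made with Python 3.11.15, pandas 2.3.3, NumPy 2.4.6, SciPy 1.17.1 and matplotlib 3.10.9. Coordinates are 1-based.

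The members, gene lists and tests were chosen with earlier results of these data known. Of the list names, 299 matched a gene name directly, 2 through an older name and 5 not at all. Genes were named by rule: the 10 genes of highest FPKM with a region, the 10 regions of highest median fold enrichment in genes of at least 1 FPKM, the called regions or, if fewer than 5, the 5 lowest p in each direction, the 10 genes with most regions, the 5 longest regions, called genes with a region (none), up to 4 genes per list with all m6A genes, and Map2, Zwint, Ttr and Huwe1. Some genes that the rule names are not reported here. Regions that were most even, most variable or called only in an alternative were named after their values were seen. Alternatives covered overlap, score, centring, scale, pseudocount, filters and each sample left out, and the 2 with length classes were added after the data were seen. No deposited sequence or genome of this build was used, so no sequences are shown.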

Additional observations from a re-analysis of the deposited data

How the results depend on the processing

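The number of regions in every list was 5261, 5247 with a 100-base overlap, 3887 with scores of at least 100, 2516 with the upper 50% of each list by score, and 5470 to 5969 when any 1 list was left out and the other 5 were required. Regions called higher in fold enrichment (0) numbered 2 without centring, 2 after quantile normalization, 3 when only these regions were fitted, 3 without the trend, 1 with centring in length classes and 0 to 65 with 1 sample left out, 65 being without TON 5. Regions called lower (3) numbered 12 after quantile normalization, 12 when only these regions were fitted, 7 without the trend, 0 with percentiles, and 1 to 219 with 1 sample left out, 219 being without TON 5. Length classes without TON 5 gave 40 and 68. Without centring the median log2 difference of the members was 0.39 in place of 0.04, with 1412 higher and 136 lower at an unadjusted p under 0.05, so directions are relative to each list's median. With the score in place of fold enrichment, Rrbp1 had -0.11 on the log2 scale, the other sign. Genes with a region called higher in FPKM (0) numbered 1 with a filter at 1 FPKM (Cebpd) and 0 to 1 with 1 sample left out (Dkc1 without TON 5, Rlim without TON 6, Cebpd without sham 2), and those called lower (0) numbered 0 to 2 (Dnajb1 and Svip without sham 3). The difference in median fold enrichment was 22.4% to 39.5% with 1 sample left out. That in bases covered was -0.200% to 1.05%, -0.0145% without TON 5 and -0.200% without sham 1, and that in peaks per region was 0% where each list had exactly 1 peak, by construction. The centre lay within 500 bases of the 3′ end in 11.7%, against 11.1% in 1 to 5 lists. The cause of these changes was not tested. No paired analysis was possible because the TON and sham samples share no replicate numbers.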
